A study of Phaseolus vulgaris with 6 samples.

Results

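Common bean (Phaseolus vulgaris) has 3 gene models described as cellulose synthase A4 among the 27012 in the deposited table, and all 3 are described here. The rule that picks them uses the description and no measured value, although results of these data were known when the description was chosen. They are Phvul.009G242700 (chromosome 9, 36364871 to 36370969, minus strand), Phvul.007G190300 (chromosome 7, 31018225 to 31022787, plus strand) and Phvul.002G188600 (chromosome 2, 35129960 to 35135091, plus strand). RNA was sequenced from top stems of the mutant nts and of its wild type A18, with 3 samples of each, grown in pots at 25 °C with 14 h of light and 10 h of dark and collected at first flowering, once the mutant's stem tip looked different. The labels give neither the lesion in nts nor the age of the plants in days, and nothing says that the samples of a genotype were separate plants, and the p-values therefore cover the spread among these libraries, which may be technical.

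Cellulose is made at the plasma membrane by rosette-shaped complexes of cellulose synthase A proteins, each a catalytic subunit that adds glucose from UDP-glucose to a growing chain. In Arabidopsis, primary walls of growing cells use CESA1, CESA3 and CESA6-type subunits, whereas secondary walls of xylem and fibres use CESA4, CESA7 and CESA8. Loss of CESA4 there gives collapsed xylem vessels, the irregular xylem phenotype. In stems these subunits are markers of cells that lay down a thick secondary wall.

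The members differed in more than position. Each has 1 transcript in the table, over a span of 6099 bases for Phvul.009G242700, 4563 for Phvul.007G190300 and 5132 for Phvul.002G188600, and none of the 3 overlaps another gene model. They share 9 gene ontology terms, among them plant-type secondary cell wall biogenesis, cell wall thickening and cellulose synthase (UDP-forming) activity. Phvul.009G242700 and Phvul.002G188600 carry the same 16 terms, which include defence and hormone terms that Phvul.007G190300 lacks. Phvul.007G190300 has 13 terms, 4 of them its own, such as cellulose synthase complex. Chromosome positions are those of the table, whose genome build is not given in the sources used here.

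The libraries held between 40728394 and 62695701 counts. On the leading principal component of log2 CPM, with 54.3% of the variance, nts replicates 1 and 2 stood at 127 and 105.4 and A18 replicates 1 and 3 at -115.9 and -120.5, while nts replicate 3 (42.35) and A18 replicate 2 (-38.35) lay between them. These 2 libraries stand apart from their own genotype. Results on the cellulose synthase A4 genes and the counts of other cellulose synthase A genes called are therefore given with and without them. So are named genes with values whose call depends on them. Both were picked from these same data, each as the library of its genotype nearest to the other genotype. On that component, leaving out either widens the genotype difference and narrows the spread within its genotype by construction. Adjusted p-values from fits without them describe the remaining libraries and are no independent support. Leaving both out raised calls over all genes: at an adjusted p under 0.05 edgeR then called 10.3% lower, against 0.0947% in either direction with all 6 libraries. Genes listed as markers of xylem vessels and fibres, such as xylem cysteine peptidases, summed to between 176.8 and 290.4 FPKM in nts and between 278.3 and 476.6 FPKM in A18. Of 12 tested markers, 3 were lower and 0 higher past the limits set by the study's design (|log2 change| of 2 or more, unadjusted p of 0.05 or less, called the study's thresholds here). The most abundant of the list, Phvul.001G012000, is described as bifunctional nuclease in basal defense response 1, which does not name xylem. It had 47.3, 43.9 and 108.5 FPKM in nts replicates 1, 2 and 3, against 172.7, 70.2 and 215.0 FPKM in A18 replicates 1, 2 and 3. Much of both sums therefore comes from a gene that may not mark xylem. Of the 13 markers listed, 11 had a count in every library of both genotypes; Phvul.010G088400 (xylem serine peptidase 1) was at 0 in nts replicates 2 and 3, and Phvul.011G131400 (xylem cysteine peptidase 1) in nts replicate 2 and all A18 libraries. Epidermal markers summed to between 642.4 and 1174.3 FPKM in nts and between 447.7 and 624.4 FPKM in A18, with 5 of 21 tested higher and 2 lower. Of all tested genes, 3.37% were lower and 2.06% higher past the same thresholds. Without the 2 genes described as protodermal factor 1 the epidermal sums overlapped, at 537.7, 499.4 and 638.7 FPKM in nts replicates 1, 2 and 3 and 624.1, 444.4 and 514.2 FPKM in A18 replicates 1, 2 and 3. Summed xylem, phloem, shoot meristem, floral and leaf photosynthesis markers overlapped between the genotypes. Of the 12 tested xylem markers, 7 had negative and 5 positive log2 changes. The part of tissue makeup in the results was not tested, and in bulk stems fewer cells of a type and less RNA per cell cannot be told apart.

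Phvul.009G242700 was the most abundant cellulose synthase A4 transcript in each of these stem samples and was lower in every nts library than in every A18 library. Its level, in FPKM (fragments divided by transcript length and library depth, so that genes of different length can be compared), was 10.1, 6.04 and 142.5 in nts replicates 1, 2 and 3, against 490.8, 409.99 and 644.2 in A18 replicates 1, 2 and 3. The genotypes did not overlap, and nts replicate 3 stood far above the other nts libraries while remaining below the lowest A18 library. The means were 52.9 ± 77.7 FPKM in nts and 515 ± 119 FPKM in A18 (SD, n = 3 each), so that nts had 10.3% of the A18 mean. The fitted log2 change, nts minus A18, was -3.17 ± 1.24 SE (edgeR quasi-likelihood test, unadjusted p = 0.0403, adjusted p = 0.252 over 21126 genes), a difference that missed the threshold of 0.05 after adjustment. Without nts replicate 3 the log2 change was -5.92 ± 0.46 (edgeR adjusted p = 0.0172), and without both that library and A18 replicate 2 it was -6.03 ± 0.44 (edgeR adjusted p = 0.00540).

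Phvul.007G190300 was present at a moderate level in A18 and was close to absent in nts. It had 0.0715, 0.137 and 0 FPKM in nts replicates 1, 2 and 3, from 14, 25 and 0 counts. In A18 it had 25.8, 1.51 and 27.7 FPKM in replicates 1, 2 and 3, from 4741, 195 and 4472 counts. Every nts library was below every A18 library, but A18 replicate 2 stood well below the other A18 libraries. In nts replicate 3 a count of 0 allows up to 3 counts, or 0.0647 CPM (counts scaled to library size), if each count is 1 fragment. The means were 0.0695 ± 0.0686 FPKM in nts and 18.3 ± 14.6 FPKM in A18 (SD, n = 3 each), a log2 change of -7.82 ± 1.49 (edgeR, unadjusted p = 0.00152, adjusted p = 0.0809). The adjusted p was 0.0270 without A18 replicate 2 (edgeR, log2 change -8.32 ± 1.003) and 0.00302 without A18 replicate 2 and nts replicate 3 (log2 change -7.85 ± 0.33).

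Phvul.002G188600 was a rare transcript in both genotypes and was not separated by genotype. It had 0.472, 1.37 and 2.22 FPKM in nts replicates 1, 2 and 3, against 0.110, 2.78 and 0.586 FPKM in A18 replicates 1, 2 and 3. The highest and the lowest libraries were both A18, and the nts values lay within that range. The means were 1.35 ± 0.874 FPKM in nts and 1.16 ± 1.43 FPKM in A18 (SD, n = 3 each; edgeR log2 change 0.21 ± 1.14, adjusted p = 0.947). At 24 to 420 counts per library, counting error was between 4.88% and 20.4% of the count if each count is 1 fragment. That was less than the spread between libraries, but the error is larger if a fragment gave several counts. The direction turned with the libraries used, from -0.38 without nts replicate 3 to 2.12 without A18 replicate 2 on the log2 scale, and the edgeR adjusted p was 0.270 or more in each fit that left out 1 library.

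**Figure D1:**
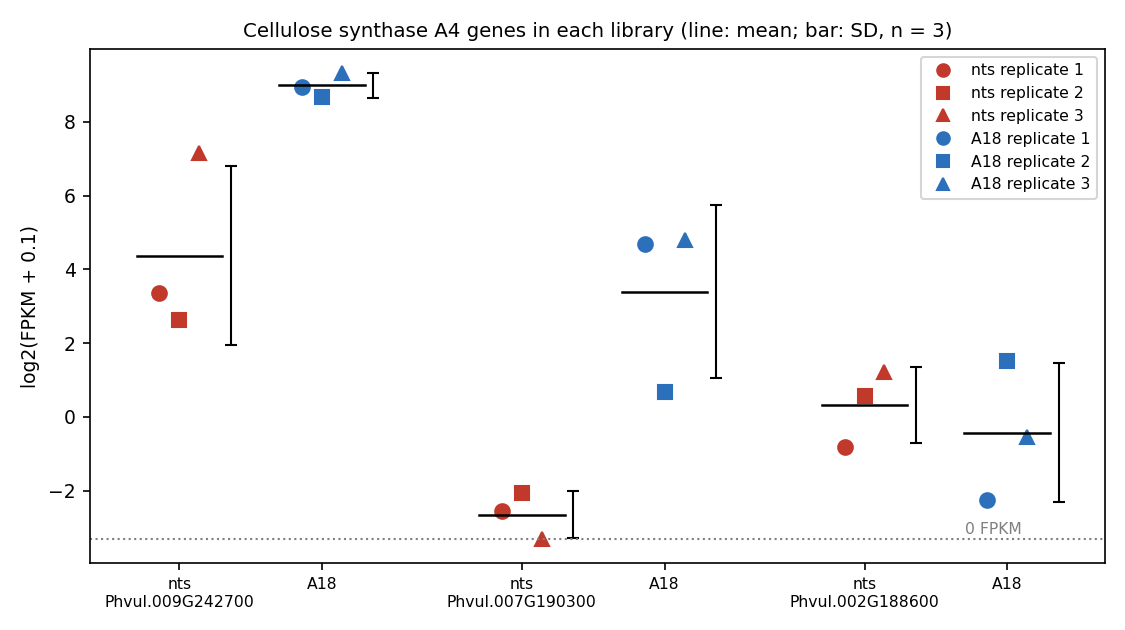
Each point is a library, with log2(FPKM + 0.1) on the y axis and the 3 cellulose synthase A4 genes on the x axis, nts in red and A18 in blue; lines are means and bars SD (n = 3). Phvul.009G242700 and Phvul.007G190300 have every nts point below every A18 point, whereas the points of Phvul.002G188600 overlap.

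Counted by rule, 2 of the 3 members, Phvul.009G242700 and Phvul.007G190300, were lower past the study's thresholds. Of all tested genes 3.37% were lower by that rule. Phvul.007G190300 stayed past these thresholds when any 1 library was left out, whereas Phvul.009G242700 did so without nts replicate 3 alone and had an unadjusted edgeR p of 0.0588 to 0.0826 without any other library. The same 2 of 3 members had no overlap between genotypes with nts lower, as did 14.3% of all tested genes. At an adjusted p under 0.05 the edgeR test called 0 of the 3 members, and it called 0.0947% of all tested genes; 2 members had an unadjusted p under 0.05, as did 18% of all tested genes. DESeq2 called 2 of the 3 members lower (adjusted p = 0.0187 for Phvul.009G242700 and 1.09e-09 for Phvul.007G190300), where it called 6.02% of all genes lower. Without A18 replicate 2 and nts replicate 3, edgeR called the same 2 members lower, and 10.3% of all genes tested there.

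**Figure D2:**
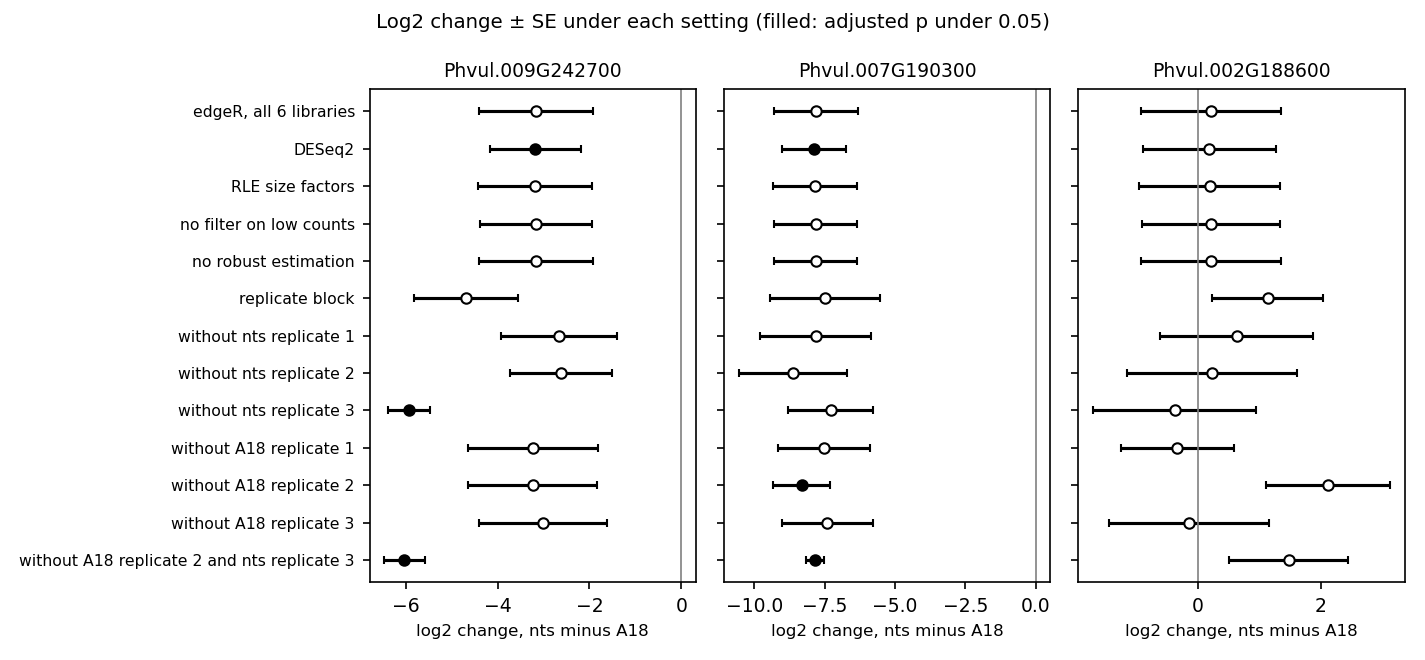
The x axis is the log2 change, nts minus A18, of each cellulose synthase A4 gene, with its SE as a bar, for each setting on the y axis; filled points have an adjusted p under 0.05. Phvul.009G242700 and Phvul.007G190300 lie below 0 in all 13 settings shown, and Phvul.002G188600 lies on both sides of 0.

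Ordered by mean level, the highest of the 6 combinations of copy and genotype was Phvul.009G242700 in A18 at 515 FPKM, which stood clear of the next. Phvul.009G242700 in nts followed at 52.9 FPKM, then Phvul.007G190300 in A18 at 18.3 FPKM, Phvul.002G188600 in nts at 1.35 and in A18 at 1.16 FPKM, and last Phvul.007G190300 in nts at 0.0695 FPKM. From the second place downward each neighbouring pair in that order overlapped in its libraries.

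Added together, the 3 copies gave 10.6, 7.55 and 144.7 FPKM in nts replicates 1, 2 and 3, against 516.7, 414.3 and 672.5 FPKM in A18 replicates 1, 2 and 3. Every nts sum was below every A18 sum, with means of 54.3 ± 78.3 FPKM in nts and 534.5 ± 130.0 FPKM in A18 (SD, n = 3 each). The difference in mean log2(summed FPKM + 0.1) was -4.52, with a two-sided exact permutation p of 0.1, the smallest that 3 against 3 allows. It was -6.03 without A18 replicate 2 and nts replicate 3. Phvul.009G242700 made up most of the sum in every library, from 80.04% in nts replicate 2 to 98.97% in A18 replicate 2. The remainder was divided differently in the genotypes. Phvul.007G190300 held 0.67%, 1.82% and 0% in nts and 4.995%, 0.363% and 4.12% in A18, while Phvul.002G188600 held 4.45%, 18.1% and 1.53% in nts and 0.0212%, 0.671% and 0.0871% in A18 (replicates 1, 2 and 3 in each case). The share of Phvul.002G188600 was higher in every nts library, although its own FPKM overlapped between the genotypes.

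The ratio between copies was taken within each library as the log2 ratio of FPKM + 0.1. Phvul.009G242700 exceeded Phvul.007G190300 in 6 of 6 libraries by a mean of 6.31, and Phvul.002G188600 in 6 of 6 by a mean of 6.73, on the log2 scale (two-sided exact sign-flip permutation test over the libraries, p = 0.0312, the smallest 6 libraries allow, adjusted p = 0.0469 over the 3 pairs). With any 1 library left out the test cannot pass 0.05, and the means without A18 replicate 2 and nts replicate 3 were 4.84 and 6.82. Phvul.007G190300 and Phvul.002G188600 had no fixed order. Their log2 ratio was -1.74, -2.63 and -4.54 in nts replicates 1, 2 and 3, and 6.95, -0.84 and 5.34 in A18 replicates 1, 2 and 3 (mean over all 6 libraries 0.42, exact sign-flip permutation adjusted p = 0.875). The sign of this ratio separated A18 replicates 1 and 3 from the 4 other libraries.

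Whether copies differed by the same amount between the genotypes was tested on the same ratios. The log2 ratio of Phvul.009G242700 to Phvul.002G188600 averaged 4.05 ± 1.94 in nts and 9.41 ± 2.06 in A18 (SD, n = 3 each), a difference of -5.35. That of Phvul.007G190300 to Phvul.002G188600 averaged -2.97 ± 1.43 in nts and 3.82 ± 4.11 in A18, a difference of -6.78. In both pairs every nts library was below every A18 library, and the two-sided exact permutation p was 0.1 (adjusted p = 0.15 over the 3 pairs), the smallest this design allows before adjustment. Without A18 replicate 2 and nts replicate 3 these differences were -7.43 and -8.33. With 1 FPKM added in place of 0.1 they were -4.75 and -3.79 (exact permutation p = 0.1 and 0.2, adjusted p = 0.3 for both). The ratio of Phvul.007G190300 to Phvul.002G188600 then overlapped between the genotypes, at -0.46 in nts replicate 1 and -0.59 in A18 replicate 2. The log2 ratio of Phvul.009G242700 to Phvul.007G190300 averaged 7.02 ± 3.05 in nts and 5.59 ± 2.09 in A18, a difference of 1.43 that lay within the spread (exact permutation p = 0.5). That last difference was -0.30 without nts replicate 3, 0.90 without that library and A18 replicate 2, -0.96 with 1 FPKM added, 3.08 with 0.01 FPKM added and 2.33 on TMM-scaled CPM, so neither its sign nor its size is settled. The highest ratios of this pair were those of nts replicate 3, at 10.5, and A18 replicate 2, at 7.997.

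**Figure D3:**
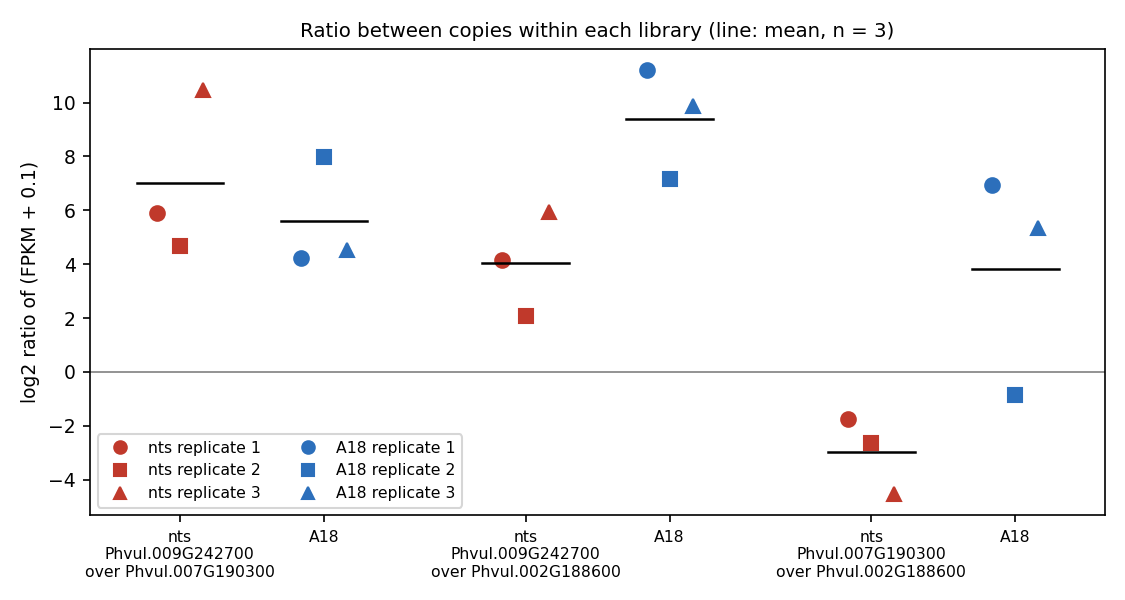
Points are the log2 ratio of (FPKM + 0.1) between a pair of cellulose synthase A4 genes within each library, nts in red and A18 in blue, with the mean of 3 as a line. On this scale ratios over Phvul.002G188600 are lower in every nts library than in every A18 library (those of Phvul.007G190300 overlap with 1 FPKM added), while Phvul.009G242700 over Phvul.007G190300 is highest in nts replicate 3 and A18 replicate 2.

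A secondary wall complex needs other subunits, and the table has 12 further cellulose synthase A genes, all of them tested. None of the 12 was called at an adjusted p under 0.05 by edgeR, and 5 had an unadjusted edgeR p under 0.05, against 18% of all tested genes. DESeq2 called 3 lower and 1 higher (6.02% and 4.44% of all genes it adjusted). Past the study's thresholds 3 of the 12 were lower and 0 higher (25% lower, against 3.37% of all tested genes), namely Phvul.002G240200, Phvul.009G205100 and Phvul.009G205200. Without nts replicate 3 the study's thresholds were passed by 5 of them and edgeR called 4, and without A18 replicate 2 edgeR called 3. When A18 replicate 1, 2 or 3 or nts replicate 2 was left out, 2 passed the thresholds. For fits without 1 library the shares of all genes are not given here, so these counts have no background. The median log2 change was -0.32 over the 12 and 0.00 over all tested genes. Of these 12 genes, 7 carry the ontology term for secondary wall biogenesis, with a median of -2.65 and the 3 lower genes among them, and the 5 without it had a median of 0.70. Of the 7 with the term, 6 had negative changes and 1 a positive change. The latter, Phvul.005G022100, was higher in every nts library than in every A18 library (log2 change 0.62 ± 0.28, edgeR adjusted p = 0.314). This division by ontology term was made after the values were seen. The descriptions do not say which genes correspond to Arabidopsis CESA7 or CESA8, and all 15 genes share a single KEGG orthology entry.

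Among these subunits the libraries that stood apart drew out different profiles, a grouping made after the values were seen and given without a test. Phvul.009G242700 was nearest in profile to Phvul.009G090100, Phvul.003G154600 and Phvul.009G205100, all described as cellulose synthase family proteins, at a root mean square difference of 0.60, 0.83 and 0.85 log2 units (centred log2 CPM over the 6 libraries). Phvul.009G090100 had 2.99, 2.52 and 65.3 FPKM in nts replicates 1, 2 and 3, against 81.3, 231 and 153 FPKM in A18 replicates 1, 2 and 3 (edgeR log2 change -2.65 ± 1.35, adjusted p = 0.364). Phvul.003G154600 had 1.76, 1.80 and 97.7 FPKM in nts, against 86.5, 299 and 191 FPKM in A18 (edgeR log2 change -2.44 ± 1.60, adjusted p = 0.479), and Phvul.009G205100 had 0.613, 2.14 and 23.5 FPKM in nts, against 58.4, 132 and 100.2 FPKM in A18 (log2 change -3.39 ± 1.32, adjusted p = 0.2503). In nts replicate 3 each of the 4 was between 17.1 and 54.9 times the mean of the other nts libraries. In A18 replicate 2 they went different ways. Phvul.009G242700 was lowest there among the A18 libraries, at 0.722 times the mean of the others. Phvul.009G090100, Phvul.003G154600 and Phvul.009G205100 were instead highest there, at 1.98, 2.15 and 1.67 times that mean.

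The cellulose synthase A genes nearest to Phvul.007G190300 were Phvul.009G205200 and Phvul.002G240200, also cellulose synthase family proteins, at 2.11 and 2.48 log2 units by the same measure. That is a loose likeness, since Phvul.011G211500 and Phvul.005G010400, outside the preceding group, were 2.35 and 2.43 log2 units from Phvul.009G242700. Phvul.009G205200 had 0, 0.115 and 0 FPKM in nts replicates 1, 2 and 3, against 163, 14.0 and 90.2 FPKM in A18 replicates 1, 2 and 3 (edgeR adjusted p = 0.0663). Phvul.002G240200 had 0.0580, 0 and 0 FPKM in nts, against 198, 16.6 and 132 FPKM in A18 (edgeR adjusted p = 0.0564). Phvul.007G190300, Phvul.009G205200 and Phvul.002G240200 were at 0 in nts replicate 3, and each had 25 counts or fewer in every nts library. As Phvul.009G205200 was also at 0 in nts replicate 1 and Phvul.002G240200 in nts replicate 2, this does not set nts replicate 3 apart. In A18 replicate 2 these 3 genes had between 0.056 and 0.111 times the mean of the other A18 libraries. Without A18 replicate 2 and nts replicate 3, edgeR called these 3 genes and the 4 of the preceding group lower, with adjusted p from 0.00302 to 0.0125. Phvul.009G205100 and Phvul.009G205200 lie 6216 bases apart on chromosome 9 on the same strand and belong to different groups. How reads that match several copies were counted is not given, so the split between near-identical genes is uncertain.

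For the other cellulose synthase A genes the genotypes lay closer together, and none was past the study's thresholds. Those described as cellulose synthase 1 or 6 alone, the Arabidopsis names of primary wall subunits, had means that were higher in nts, without passing the test. Phvul.009G094200 (cellulose synthase 1) had 143, 142 and 163 FPKM in nts replicates 1, 2 and 3, against 114, 103.4 and 73.1 FPKM in A18 replicates 1, 2 and 3 (edgeR log2 change 0.70 ± 0.27, adjusted p = 0.248). Phvul.002G268200 (cellulose synthase 6) averaged 149 ± 15.3 FPKM in nts and 75.7 ± 36.3 FPKM in A18 (edgeR log2 change 1.02 ± 0.43, adjusted p = 0.282), and Phvul.004G093300 (cellulose synthase 6) averaged 59.8 ± 6.96 FPKM in nts and 50.01 ± 27.2 FPKM in A18 (SD, n = 3 each). Phvul.007G081700 (cellulose synthase A9) averaged 19.1 ± 1.18 FPKM in nts and 11.4 ± 1.98 FPKM in A18 (log2 change 0.81 ± 0.22, adjusted p = 0.141), and was the gene that DESeq2 called higher (adjusted p = 0.0340). Phvul.005G022100 averaged 98.2 ± 3.801 FPKM in nts and 66.9 ± 18.1 FPKM in A18, and Phvul.011G211500 18.5 ± 4.80 FPKM in nts and 29.01 ± 9.40 FPKM in A18, both cellulose synthase family proteins with adjusted p of 0.314 and 0.383 in edgeR. With A18 replicate 2 and nts replicate 3 left out, edgeR called Phvul.002G268200 and Phvul.007G081700 higher (log2 change 1.497 and 1.04, adjusted p = 0.0315 and 0.0153) and Phvul.011G211500 lower (-0.98, adjusted p = 0.0403). Phvul.005G010400, whose description joins cellulose synthase 6 and A9, stayed near 1 FPKM in both genotypes, with means of 0.895 FPKM in nts and 1.01 FPKM in A18.

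**Figure D4:**
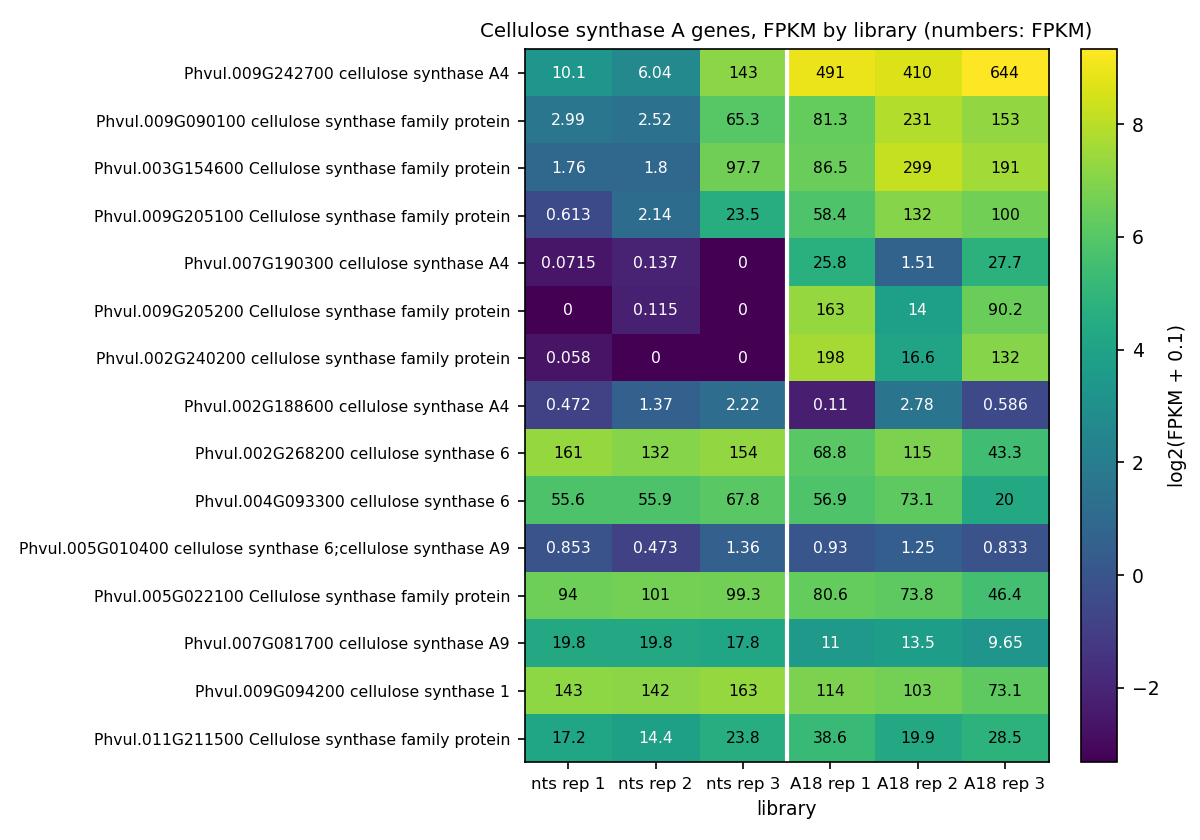
Rows are the 15 cellulose synthase A genes and columns the 6 libraries, nts left of A18; colour is log2(FPKM + 0.1) and the printed numbers are FPKM. Phvul.009G242700 and the 3 rows under it are intermediate in nts replicate 3. Phvul.007G190300 and the pair of rows under it are at 0 there, at 0.137 FPKM or less in every nts library, and low in A18 replicate 2.

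Over all tested genes with a description and a mean of at least 5 FPKM, the 3 with the profile nearest to each member were found from the root mean square difference of centred log2 CPM over the 6 libraries. For Phvul.009G242700, out of 13270 genes considered, these were a galactosyltransferase family protein (Phvul.008G159800, 0.29 log2 units), plant glycogenin-like starch initiation protein 3 (Phvul.001G021800, 0.46) and a DUF1223 protein (Phvul.011G138400, 0.53). For Phvul.007G190300 the nearest were more distant, at 1.08 for ralf-like 33 (Phvul.001G205701), 1.17 for galacturonosyltransferase-like 4 (Phvul.003G097800) and 1.19 for FASCICLIN-like arabinogalactan-protein 12 (Phvul.011G075500). For Phvul.002G188600 they were polyol/monosaccharide transporter 5 (Phvul.009G008900, 0.41), a ubiquitin-like superfamily protein (Phvul.004G059000, 0.53) and PYRIMIDINE 4 (Phvul.008G087600, 0.58). Between the members the same measure was 3.19 for Phvul.009G242700 and Phvul.007G190300, 3.31 for Phvul.009G242700 and Phvul.002G188600 and 5.24 for Phvul.007G190300 and Phvul.002G188600.

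The partners of cellulose synthesis included abundant genes with a level below A18 in every nts library. Of 21 tested partners of cellulose synthesis, 3 were lower and 0 higher past the study's thresholds, against 3.37% lower and 2.06% higher of all tested genes. edgeR called 0 of the 21, and 4 had an unadjusted edgeR p under 0.05, a share near the 18% of all tested genes. DESeq2 called 4 lower, against 6.02% of all genes it adjusted. Without nts replicate 3 the thresholds were passed by 6 and edgeR called 4, without A18 replicate 2 edgeR called 1, and 2 passed without nts replicate 1 or 2. These counts stand without the shares of all genes in the same fits, which are not given here. Chitinase-like protein 2 (Phvul.009G254400), of a kind that binds glucan chains in Arabidopsis secondary walls, had 4.67, 9.82 and 129 FPKM in nts replicates 1, 2 and 3, against 839, 1049 and 1042 FPKM in A18 replicates 1, 2 and 3 (edgeR log2 change -4.25 ± 1.32, adjusted p = 0.174). Like Phvul.009G242700, it was intermediate in nts replicate 3 without overlap. Glycosyl hydrolase 9A1 (Phvul.006G133700), the KORRIGAN endoglucanase of Arabidopsis cellulose synthesis, averaged 141 ± 63.02 FPKM in nts and 601 ± 12.7 FPKM in A18 (edgeR log2 change -2.01 ± 0.38, adjusted p = 0.0804, n = 3 each). Sucrose synthase 4 (Phvul.003G127500), which can supply UDP-glucose, averaged 196 ± 112 FPKM in nts and 526 ± 165 FPKM in A18 (log2 change -1.32 ± 0.47, edgeR adjusted p = 0.216). Without A18 replicate 2 and nts replicate 3, edgeR called these 3 genes lower, with log2 changes of -6.93, -2.43 and -2.07 (adjusted p = 0.00527, 0.00709 and 0.0157). The third gene lower past the thresholds was the COBRA-like gene Phvul.009G203200, with 0.144 ± 0.110 FPKM in nts and 111 ± 112 FPKM in A18, which was chosen for naming after its values were seen (edgeR adjusted p = 0.00833 without both libraries).

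Of 26 tested regulators of the secondary wall, 10 were lower and 0 higher past the study's thresholds, against 3.37% and 2.06% of all tested genes. The median log2 change of the regulators was -1.25. At an adjusted p under 0.05 edgeR called 1 of the 26, where it called 0.0947% of all tested genes. The gene was MYB85 (Phvul.003G214300, log2 change -4.77 ± 0.48, edgeR adjusted p = 0.0397), a transcription factor of lignin genes in Arabidopsis that fell in nts. The count of regulators called by edgeR was 9 without nts replicate 3, 1 without A18 replicate 2 and 0 without any other library. No share of all genes called in those fits is given here, so the change in count is not a result on the regulators. By the naming rule, NAC domain containing protein 73 (Phvul.005G100100) had 2.15, 4.91 and 28.4 FPKM in nts replicates 1, 2 and 3, against 140, 185 and 277 FPKM in A18 replicates 1, 2 and 3 (edgeR adjusted p = 0.129). MYB103 (Phvul.002G159700) averaged 30.5 ± 34.05 FPKM in nts and 135 ± 34.3 FPKM in A18 (edgeR adjusted p = 0.273), whereas MYB61 (Phvul.001G219000) averaged 201 ± 169 FPKM in nts and 118 ± 36.1 FPKM in A18 (edgeR adjusted p = 0.550). When A18 replicate 2 and nts replicate 3 were left out, edgeR called NAC domain containing protein 73 and MYB103 lower (log2 change -5.79 and -3.28, adjusted p = 0.00886 and 0.0128). Both were highest in nts replicate 3 among the nts libraries, as Phvul.009G242700 was.

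The list of xylan and other secondary wall genes had 22 of 52 tested lower and 0 higher past the thresholds, against 3.37% and 2.06% of all tested genes. The median log2 change of the list was -1.50, and 17 of the 22 lower genes were FASCICLIN-like arabinogalactan-proteins 11 and 12. The 31 remaining genes of the list had 5 lower and a median of 0.15, in a division made after the values were seen. edgeR called 2 of the list, where it called 0.0947% of all tested genes. Both were lower: FASCICLIN-like arabinogalactan-protein 11 Phvul.011G076900 (edgeR adjusted p = 0.0319) and the DUF579 protein Phvul.001G262300 (edgeR adjusted p = 0.0397). The count of the list called by edgeR was 23 without nts replicate 3, 20 without A18 replicate 2 and 0 without any other library. As the shares of all genes called in those fits are not given here, the rise cannot be read as particular to the list. The 3 most abundant of the list were all described as FASCICLIN-like arabinogalactan-protein 11. Phvul.011G077700 had 0.811, 0.503 and 13.4 FPKM in nts replicates 1, 2 and 3, against 2842, 656 and 2229 FPKM in A18 replicates 1, 2 and 3 (edgeR adjusted p = 0.0867). It was lowest in A18 replicate 2 among the A18 libraries, as Phvul.007G190300 and Phvul.009G242700 were, and highest in nts replicate 3 among the nts libraries, as Phvul.009G242700 was and Phvul.007G190300 was not. Without both of these libraries edgeR called it lower (log2 change -11.77, adjusted p = 0.00302). Phvul.002G241700 averaged 556 ± 317 FPKM in nts and 971 ± 94.0 FPKM in A18, and Phvul.001G176400 298 ± 194 FPKM in nts and 398 ± 422 FPKM in A18 (edgeR adjusted p = 0.522 and 0.857).

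Of 58 tested lignin genes, 19 were lower and 2 higher past the thresholds, against 3.37% and 2.06% of all tested genes. The median log2 change of the lignin genes was -1.70. edgeR called 0 of the 58 at an adjusted p under 0.05, and 26 had an unadjusted edgeR p under 0.05, against 18% of all tested genes. DESeq2 called 25 of them, 22 lower and 3 higher, against 6.02% lower and 4.44% higher of all genes it adjusted. Without nts replicate 3 edgeR called 16, and without A18 replicate 2 it called 2, again with no share of all genes in those fits to set beside them. The laccase Phvul.010G073800, of the oxidases that couple lignin monomers, had 2.88, 4.197 and 62.9 FPKM in nts replicates 1, 2 and 3, against 226, 637 and 572 FPKM in A18 replicates 1, 2 and 3 (edgeR adjusted p = 0.181). Ferulic acid 5-hydroxylase 1 (Phvul.002G111900) averaged 16.8 ± 7.06 FPKM in nts and 423 ± 327 FPKM in A18 (edgeR adjusted p = 0.0663), and cinnamate-4-hydroxylase (Phvul.008G247400) 111 ± 33.7 FPKM in nts and 366 ± 122 FPKM in A18 (edgeR adjusted p = 0.119). These 3 genes were lower in every nts library than in every A18 library. With both of the libraries that stand apart left out, edgeR called the laccase and ferulic acid 5-hydroxylase 1 lower (log2 change -6.72 and -4.74, adjusted p = 0.00732 and 0.00950), and cinnamate-4-hydroxylase had an adjusted p of 0.0522.

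Cellulose synthase-like genes make other wall polysaccharides. Of 29 tested, 2 were lower and 2 higher past the thresholds, where 3.37% and 2.06% of all tested genes were, and the median log2 change was 0.24, with 18 positive and 11 negative changes. edgeR called 0 of them, and 7 had an unadjusted edgeR p under 0.05, against 18% of all tested genes. DESeq2 called 4 higher and 1 lower, against 4.44% and 6.02% of all genes it adjusted. Without A18 replicate 2 the thresholds were passed by 7 and edgeR called 5, without nts replicate 3 edgeR called 1, and 2 passed the thresholds without A18 replicate 1 or nts replicate 2. Here too the shares of all genes in those fits are not given. Cellulose-synthase-like C5 (Phvul.009G102200), of a family that makes the xyloglucan backbone, had 63.5, 52.0 and 98.0 FPKM in nts replicates 1, 2 and 3, against 9.63, 27.2 and 6.88 FPKM in A18 replicates 1, 2 and 3 (edgeR log2 change 2.31 ± 0.63, adjusted p = 0.144). The other higher gene was Phvul.008G279600, and the lower ones were Phvul.005G001000 and Phvul.005G116700, all 3 named after their values were seen and below 4 FPKM on average in both genotypes. Of the most abundant genes of the list, cellulose synthase like G1 (Phvul.008G158136) averaged 130 ± 52.9 FPKM in nts and 168 ± 52.8 FPKM in A18, and cellulose synthase-like A02 (Phvul.011G089900) 125 ± 51.9 FPKM in nts and 97.0 ± 43.1 FPKM in A18 (edgeR adjusted p = 0.762 and 0.619). In the 4 libraries other than A18 replicate 2 and nts replicate 3, edgeR called Cellulose-synthase-like C5 higher (log2 change 2.91, adjusted p = 0.00649) and cellulose synthase like G1 lower (-0.89, adjusted p = 0.0325).

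**Figure D5:**
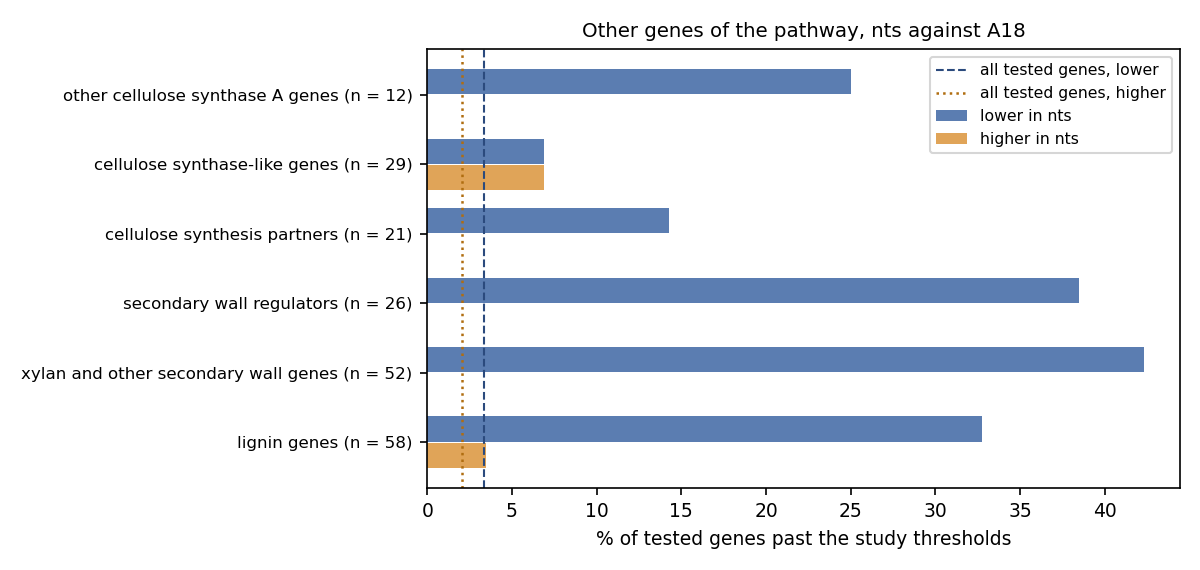
Bars give the percentage of tested genes of each list that were lower (blue) or higher (orange) in nts past the study's thresholds, with the same shares over all tested genes as lines (3.37% lower, 2.06% higher). The lists of regulators, of xylan and other secondary wall genes and of lignin genes reach 10 of 26, 22 of 52 and 19 of 58 lower.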

How the data were processed

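Reads of 6 stem RNA samples passed through cutadapt 1.9 and FastQC (submitters' processing notes). Aligner, counter, strand setting and genome build: not given in the sources used here. The deposited table holds whole-number counts for each gene, per the file headers, and FPKM values that the authors made, in which 0.0001 stands for 0 counts and was set to 0. Between 29.8% and 33.0% of counts from 1 to 39 in a library were divisible by 4, against 23.1% of the whole numbers in that range, so a count may not equal 1 fragment. Counting errors cover counting alone and take each count as 1 fragment, so they and the limit for a count of 0 may be too small. For each member, counts and FPKM implied the same length within 2930 to 3206 bases (Phvul.007G190300), 3472 to 3751 (Phvul.009G242700) and 3491 to 3707 (Phvul.002G188600) over the libraries.

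Counts were tested with edgeR 4.0.16 (quasi-likelihood F test, robust, TMM, filterByExpr) in R 4.3.3, genotype as the only term, over 21126 genes with Benjamini-Hochberg adjustment; all 3 members passed the filter. Log2 changes are nts minus A18, and SE was derived from the change and its F statistic, so it restates the test. Ratios and sums used log2(FPKM + 0.1) and exact permutation or sign-flip tests. DESeq2 1.42.0 and left-out libraries were alternatives. The edgeR test was also run on simulated counts with the means and spread of the main fit. It called 1, 17, 29 and 44 of 50 genes changed 2, 4, 8 and 16 fold, so a gene that edgeR did not call may still differ. Gene lists came from words in the descriptions; named genes were the members, the other cellulose synthase A genes, the 3 most abundant tested genes of each other list and the 3 nearest profiles. Members and lists were chosen with earlier results of these data known. No protein or promoter sequence was used here.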

Additional observations from a re-analysis of the deposited data

How the results depend on the processing

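Phvul.009G242700 and Phvul.007G190300 were negative under every alternative run (13 settings each), with log2 changes from -6.03 to -2.63 and from -8.63 to -7.28. Both were called with DESeq2 (-3.18 and -7.88) and without A18 replicate 2 and nts replicate 3 (-6.03 and -7.85). Over fits without 1 library, Phvul.009G242700 ran from -5.92 (nts replicate 3 left out, called) to -2.63, Phvul.007G190300 from -8.63 to -7.28 (called at -8.32 without A18 replicate 2), and Phvul.002G188600 from -0.38 to 2.12, negative also without A18 replicate 1 (-0.33) and replicate 3 (-0.14). Counts of called genes in the lists, lower and higher together, with DESeq2 and without both libraries were 4 and 8 of other cellulose synthase A genes, 5 and 11 of cellulose synthase-like genes, 4 and 7 of partners, 9 and 13 of regulators, 24 and 33 of xylan and other wall genes, and 25 and 29 of lignin genes. The lower ones without both libraries were 6, 6, 5, 12, 27 and 22 in that order. Over all genes DESeq2 called 6.02% lower and 4.44% higher. Without both libraries edgeR called 10.3% of all genes lower, against 0.0947% in either direction with all 6. Higher counts in that fit are therefore not particular to the lists. Over fits without 1 library the counts of called genes in these lists, in the same order, ran from 0 to 4, 0 to 5, 0 to 4, 0 to 9, 0 to 23 and 0 to 16. The highest came without nts replicate 3, except for cellulose synthase-like genes (without A18 replicate 2). Past the study's thresholds the counts without both libraries were 5, 9, 7, 13, 27 and 28, against 3, 4, 3, 10, 22 and 21 with all libraries. The shares of all genes past these thresholds without both libraries, and of all genes called without 1 library, are not given here. Those counts are therefore not read as particular to the lists.

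Same-numbered samples did not deviate together (correlations -0.02, -0.12 and 0.04 for replicates 1, 2 and 3), so no pairing by number was seen. With 3 samples of each genotype, and A18 replicate 2 and nts replicate 3 apart from the rest, these correlations cannot exclude a pairing. With the replicate block edgeR called 0 regulators and 0 xylan and other wall genes, and the members had log2 changes of -4.69, -7.48 and 1.14 (Phvul.009G242700, Phvul.007G190300, Phvul.002G188600; adjusted p = 0.216, 0.239 and 0.623); the block leaves 2 residual degrees of freedom.

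The mean log2 ratio of Phvul.007G190300 to Phvul.002G188600 was -0.20 with a pseudocount of 0.01 FPKM and -0.11 on TMM-scaled CPM, and ran from -0.88 to 1.42 without 1 library. The genotype difference in the ratio of Phvul.009G242700 to Phvul.007G190300 was -0.96 with a pseudocount of 1 FPKM, 3.08 with 0.01 FPKM, 2.33 on TMM-scaled CPM and from -0.30 to 2.63 without 1 library. The ratios of Phvul.009G242700 to Phvul.007G190300 and to Phvul.002G188600 within libraries ran from 5.47 to 6.72 and from 5.84 to 7.66 with 1 library left out; 5 libraries cannot give an exact p under 0.0625. Without A18 replicate 2 and nts replicate 3, added after seeing the data, they were 4.84 and 6.82, where 4 libraries cannot pass either, and the mean of Phvul.007G190300 over Phvul.002G188600 was 1.98. The causes of these shifts were not tested. Depth limits Phvul.007G190300 in nts, at 25 counts or fewer per library. For the other members the spread between libraries exceeds counting error, taken at 1 fragment per count.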

Other observations

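Outside the secondary wall, the markers fixed for the epidermis had values on both sides of A18. Of the 21 tested, 16 had positive and 5 negative log2 changes. The genes described as protodermal factor 1, a protein of the outermost cell layer in Arabidopsis, had their highest levels in nts replicates 1 and 2. Phvul.008G190900 had 150, 324 and 1.42 FPKM in nts replicates 1, 2 and 3, against 0.28, 0.67 and 0.11 FPKM in A18 replicates 1, 2 and 3. Phvul.006G033900 had 74.6, 351 and 2.33 FPKM in nts, against 0, 2.65 and 0 FPKM in A18 (edgeR adjusted p = 0.11 and 0.21). In nts replicate 3, the nts library with the highest level of Phvul.009G242700, both were far below the other nts libraries; Phvul.008G190900 was still above every A18 library, and Phvul.006G033900 lay within the A18 range. In the other direction, 3-ketoacyl-CoA synthase 19 (Phvul.007G009200), of a family that builds very long chain fatty acids, had 6.87, 10.9 and 31.0 FPKM in nts, against 127, 59.8 and 123 FPKM in A18 (edgeR log2 change -2.55 ± 0.62, adjusted p = 0.117). 3-ketoacyl-CoA synthase 6 (Phvul.007G027100) had a log2 change of -1.02 ± 0.47 (edgeR adjusted p = 0.317) and overlapped between the genotypes. Members 10 (Phvul.009G084500) and 4 (Phvul.009G023600) of that family were instead higher in every nts library than in every A18 library. Their log2 changes were 0.72 ± 0.22 and 1.02 ± 0.25 (edgeR adjusted p = 0.174 and 0.117). With A18 replicate 2 and nts replicate 3 left out, edgeR called both protodermal factor 1 genes higher (adjusted p = 0.00492 and 0.0149). In that fit it called 3-ketoacyl-CoA synthases 19 and 6 lower (adjusted p = 0.00527 and 0.0197) and 10 and 4 higher (adjusted p = 0.0441 and 0.0218). These genes were singled out after their values were seen, and their relation to cellulose synthase A4 was not tested.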
